A study of Rattus norvegicus with 16 samples.

Results

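The UGT1A locus was followed in rat liver through the 14 probe sets, of 8740 on the array, whose platform annotation lists at least 1 gene symbol starting with Ugt1a. Livers came from Fischer F344 males, 6 weeks of age when they arrived and caged alone, in 4 randomly assigned groups of 4 animals, with 1 array for each animal. Rats were gavaged every other day for 5 days, 3 doses in all, and killed 24 h after the last dose. The groups received D3T, OLT (oltipraz) or TBD at 0.3 mmol/kg, or the saturated sucrose vehicle. The control arrays carry titles saying no treatment, although the protocol gives these animals the vehicle. All 3 compounds are dithiolethiones, sulphur ring compounds studied as cancer chemopreventive agents. The ring is unsubstituted in D3T, has pyrazinyl and methyl substituents in OLT and a tert-butyl substituent in TBD.

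UDP-glucuronosyltransferases are membrane enzymes of the endoplasmic reticulum that join glucuronic acid from UDP-glucuronic acid to bilirubin, drugs and phenols, which can then leave in bile or urine. The UGT1A locus makes several enzymes from a single stretch of DNA: each has its own promoter and first exon, which encodes the substrate-binding part, and all splice to the same later exons, which encode the part that binds UDP-glucuronic acid. In rats, loss of the shared part in the Gunn strain abolishes the whole family and causes jaundice. The locus is a known target of the xenobiotic sensors NRF2, AhR, CAR and PXR.

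In the RefSeq annotation the locus lies on chromosome 9 in the order Ugt1a9, Ugt1a9-ps, Ugt1a8, Ugt1a7c, Ugt1a6, Ugt1a5, Ugt1a4-ps, Ugt1a3, Ugt1a2, Ugt1a1. The 8 protein-coding genes share 1 annotated end, and 2 entries are pseudogenes. Ugt1a1 encodes the main bilirubin-conjugating enzyme, Ugt1a6 an enzyme of small flat phenols, and Ugt1a7c an enzyme that accepts bulkier phenols, including metabolites of polycyclic hydrocarbons. Because of the shared exons, most probe sets carry several symbols. Of the 14, 4 (D83796_s_at, J02612mRNA_s_at, J05132_s_at and S56937_s_at) list all 8 protein-coding genes. Another 8 (AF039212mRNA_s_at, D38061exon_s_at, D38062exon_s_at, D38063exon_at, D38065exon_s_at, D38066exon_s_at, D38067exon_at and S56936_s_at) list 6 genes and lack Ugt1a5 and Ugt1a9. The 2 that list 1 symbol are D38069exon_s_at, which names Ugt1a5, and S70364_at, which names the pseudogene Ugt1a9-ps. Probe sets with several symbols are given below by their identifiers and are not assigned to a single first exon. They can share transcripts, so their counts are not counts of independent genes.

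The separate promoters of the locus are shown by the 250 bases before the annotated start of 5 genes, from RefSeq on build GRCr8, all on the plus strand: Ugt1a8 at chr9:96174649-96174898, Ugt1a7c at chr9:96187132-96187381, Ugt1a6 at chr9:96194768-96195017, Ugt1a3 at chr9:96227884-96228133 and Ugt1a1 at chr9:96248893-96249142. Capitals mark GCGTG, the core letters of the AhR response element, read on either strand, so that a match on the minus strand appears as CACGC. The first 4 are shown because they hold the motif, and Ugt1a1 as the bilirubin enzyme whose window does not.
Ugt1a8: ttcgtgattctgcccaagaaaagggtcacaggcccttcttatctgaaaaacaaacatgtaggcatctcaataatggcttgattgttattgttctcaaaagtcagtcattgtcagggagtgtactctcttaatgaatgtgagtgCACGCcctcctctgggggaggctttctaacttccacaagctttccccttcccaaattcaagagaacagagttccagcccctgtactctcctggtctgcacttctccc
Ugt1a7c: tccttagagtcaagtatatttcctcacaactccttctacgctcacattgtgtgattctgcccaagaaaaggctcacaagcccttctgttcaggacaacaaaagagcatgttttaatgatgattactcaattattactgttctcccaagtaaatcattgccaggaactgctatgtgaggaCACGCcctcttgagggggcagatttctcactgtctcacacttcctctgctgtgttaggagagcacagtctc
Ugt1a6: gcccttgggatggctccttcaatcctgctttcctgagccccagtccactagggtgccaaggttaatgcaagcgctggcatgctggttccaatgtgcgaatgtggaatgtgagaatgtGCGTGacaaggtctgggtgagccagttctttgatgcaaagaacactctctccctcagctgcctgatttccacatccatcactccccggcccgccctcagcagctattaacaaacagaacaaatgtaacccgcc
Ugt1a3: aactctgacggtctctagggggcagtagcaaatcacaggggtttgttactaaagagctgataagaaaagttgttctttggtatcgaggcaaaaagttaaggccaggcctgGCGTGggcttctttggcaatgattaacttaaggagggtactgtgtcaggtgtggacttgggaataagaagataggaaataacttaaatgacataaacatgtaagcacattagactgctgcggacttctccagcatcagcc
Ugt1a1: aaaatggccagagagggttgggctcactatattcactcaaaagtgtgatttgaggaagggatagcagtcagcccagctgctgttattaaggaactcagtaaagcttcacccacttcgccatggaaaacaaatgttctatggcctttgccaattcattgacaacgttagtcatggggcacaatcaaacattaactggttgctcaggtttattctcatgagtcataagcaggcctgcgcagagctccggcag
The GCGTG core was found in 4 of the 7 upstream windows matched by gene ID (Ugt1a5 is named only), against 25.9% of 33469 rat promoters of the same length. In Ugt1a8 and Ugt1a7c the match lay on the minus strand, and in Ugt1a6 and Ugt1a3 on the plus strand. The antioxidant response core TGACNNNGC, the letters bound by NRF2 with a small MAF protein, was found on either strand in 0 of the 7 windows, against 10.1% of all promoters. A match is a description of letters, and the absence of one covers only these windows. Overlap of the motifs could not arise in these windows, as TGACNNNGC was found in 0 of the 7.

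Values are log2 expression values as deposited, between -1.21 and 15.9, and array medians lay between 3.27 and 3.58. Arrays of 1 group correlated at 0.983 to 0.997. The 4 arrays of a group came from separate animals, so the spread holds animal and technical variation together, and no read or spot depth is given. A probe set was tested where 4 or more arrays had it above the 40th percentile of that array. This held for 5323 and failed for 3417. OLT replicate 1 and TBD replicate 4 stood apart on the second principal component, which held 13.0% of the variance. Leaving out both changed no Ugt1a call. Hepatocyte markers lay above the array median on all 16 arrays for 7 of 7 genes. Among the Ugt1a probe sets, 12 of 14 were tested, and all 12 lay above the 40th percentile on all 16 arrays, so that none passed through 1 group alone. The 2 untested probe sets lay below it on every array: D38063exon_at ranged from 2.75 to 3.12, and S70364_at of the pseudogene Ugt1a9-ps ranged from 2.87 to 3.24.

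**Figure D1:**
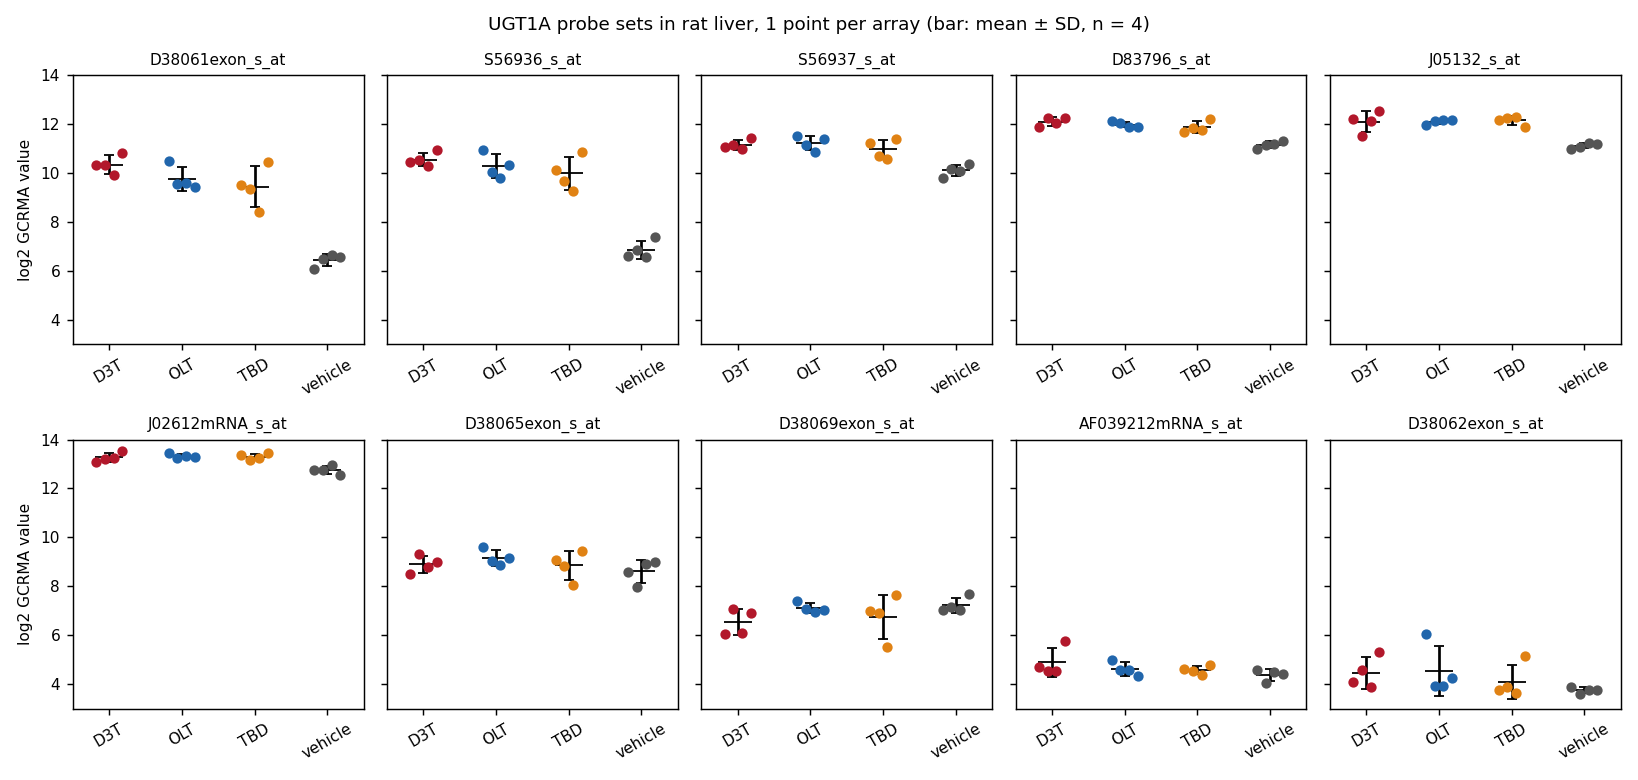
Deposited log2 value (vertical axis) of the 10 Ugt1a probe sets above the array median on all arrays, on each of the 16 arrays, by group (D3T, OLT, TBD, vehicle), with 1 point per animal and bars for the mean ± SD (n = 4). D38061exon_s_at and S56936_s_at sit between 8.42 and 10.94 with the compounds and between 6.08 and 7.39 with vehicle, and the panels of D38065exon_s_at and D38069exon_s_at overlap between groups.

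With each compound, 6 of the 12 tested Ugt1a probe sets rose and 0 fell against vehicle, by limma with Benjamini-Hochberg adjustment over all tested probe sets and a threshold of 0.05. The same 6 probe sets rose with D3T, OLT and TBD. These 3 comparisons share the vehicle arrays. Over all tested probe sets, 6.18% rose and 12.2% fell with D3T, 3.38% rose and 7.89% fell with OLT, and 3.55% rose and 9.47% fell with TBD. At an unadjusted p under 0.05, 7 of the 12 differed with D3T, 6 with OLT and 6 with TBD. The median log2 difference over the 12 was 0.61 with D3T, 0.68 with OLT and 0.45 with TBD, beside medians of 0.04, -0.03 and -0.02 over all tested probe sets. Arrays of compound and vehicle did not overlap, with compound higher, for 6 probe sets with D3T, 7 with OLT and 6 with TBD, against 9.07%, 4.88% and 3.98% of all tested probe sets. In bulk liver, fewer cells of a type and less RNA per cell cannot be told apart.

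The greatest rises were in 2 of the probe sets that list 6 genes. D38061exon_s_at had log2 values of 10.31, 10.32, 9.90 and 10.84 with D3T, 10.50, 9.53, 9.57 and 9.43 with OLT, 9.51, 9.36, 8.42 and 10.46 with TBD, and 6.08, 6.50, 6.63 and 6.58 with vehicle. Every treated array lay above every vehicle array, and the lowest treated value was that of TBD replicate 3. The means were 10.34 ± 0.38 with D3T, 9.76 ± 0.50 with OLT, 9.44 ± 0.84 with TBD and 6.45 ± 0.25 with vehicle (SD, n = 4 each). This was a rise of 3.90 ± 0.35 (log2 difference ± SE) with D3T, or 14.9-fold (95% interval 8.86 to 25.1), with a limma adjusted p of 9.83e-06. With OLT the rise was 3.31 ± 0.35, or 9.95-fold (5.92 to 16.7), with a limma adjusted p of 7.43e-05. With TBD it was 2.99 ± 0.35, or 7.96-fold (4.73 to 13.4), with a limma adjusted p of 0.000138. The order of the means was D3T, OLT, TBD and vehicle, and no pair of compounds passed the test.

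S56936_s_at, with the same 6 symbols, had 10.43, 10.55, 10.28 and 10.93 with D3T, 10.94, 10.04, 9.80 and 10.35 with OLT, 10.11, 9.68, 9.27 and 10.87 with TBD, and 6.60, 6.85, 6.57 and 7.39 with vehicle. The treated and vehicle arrays were again apart, here by more than 1 log2 unit. The rise was 3.69 ± 0.32 (12.9-fold) with D3T, with a limma adjusted p of 5.49e-06. It was 3.43 ± 0.32 (10.8-fold) with OLT, with a limma adjusted p of 1.97e-05. It was 3.13 ± 0.32 (8.75-fold) with TBD, with a limma adjusted p of 4.03e-05. The profiles of these 2 probe sets over the 16 arrays, each centred on its own mean, differed by a root mean square of 0.27 log2 units.

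The 4 probe sets that list all 8 genes rose by less. They were bright in vehicle livers too, with means between 10.11 and 12.75. J02612mRNA_s_at, the brightest, had 13.09, 13.21, 13.25 and 13.52 with D3T, 13.45, 13.26, 13.34 and 13.30 with OLT, 13.36, 13.17, 13.24 and 13.43 with TBD, and 12.75, 12.75, 12.94 and 12.55 with vehicle. All treated arrays lay above all vehicle arrays, by a margin that was narrow beside that of D38061exon_s_at. The rise was 0.52 with D3T (95% interval 0.30 to 0.74), 0.59 with OLT (0.37 to 0.81) and 0.55 with TBD (0.33 to 0.78), or 1.43-fold, 1.5-fold and 1.47-fold. Its limma adjusted p was 0.00321 with D3T, 0.00227 with OLT and 0.00284 with TBD.

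D83796_s_at had 11.87, 12.23, 12.06 and 12.26 with D3T, 12.12, 12.03, 11.90 and 11.87 with OLT, 11.67, 11.83, 11.76 and 12.22 with TBD, and 11.00, 11.13, 11.19 and 11.32 with vehicle. It rose 1.92-fold with D3T, 1.77-fold with OLT and 1.63-fold with TBD, with limma adjusted p-values of 0.000187, 0.00101 and 0.00185. The groups of treated arrays overlapped one another and stayed clear of vehicle.

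J05132_s_at had 12.22, 11.53, 12.11 and 12.54 with D3T, 11.97, 12.11, 12.17 and 12.17 with OLT, 12.19, 12.25, 12.28 and 11.89 with TBD, and 10.98, 11.08, 11.22 and 11.19 with vehicle. It rose 1.97-fold with D3T, 1.98-fold with OLT and 2.04-fold with TBD, with limma adjusted p-values of 0.000914, 0.00178 and 0.000912. Its lowest treated array was D3T replicate 2, still above every vehicle array.

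S56937_s_at had 11.05, 11.14, 10.98 and 11.41 with D3T, 11.51, 11.14, 10.87 and 11.37 with OLT, 11.22, 10.69, 10.58 and 11.40 with TBD, and 9.82, 10.17, 10.10 and 10.37 with vehicle. It rose 2.05-fold with D3T, 2.16-fold with OLT and 1.81-fold with TBD, with limma adjusted p-values of 0.00188, 0.00205 and 0.00868. Of the 6 probe sets that rose, this one had the narrowest gap between TBD and vehicle arrays.

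**Figure D2:**
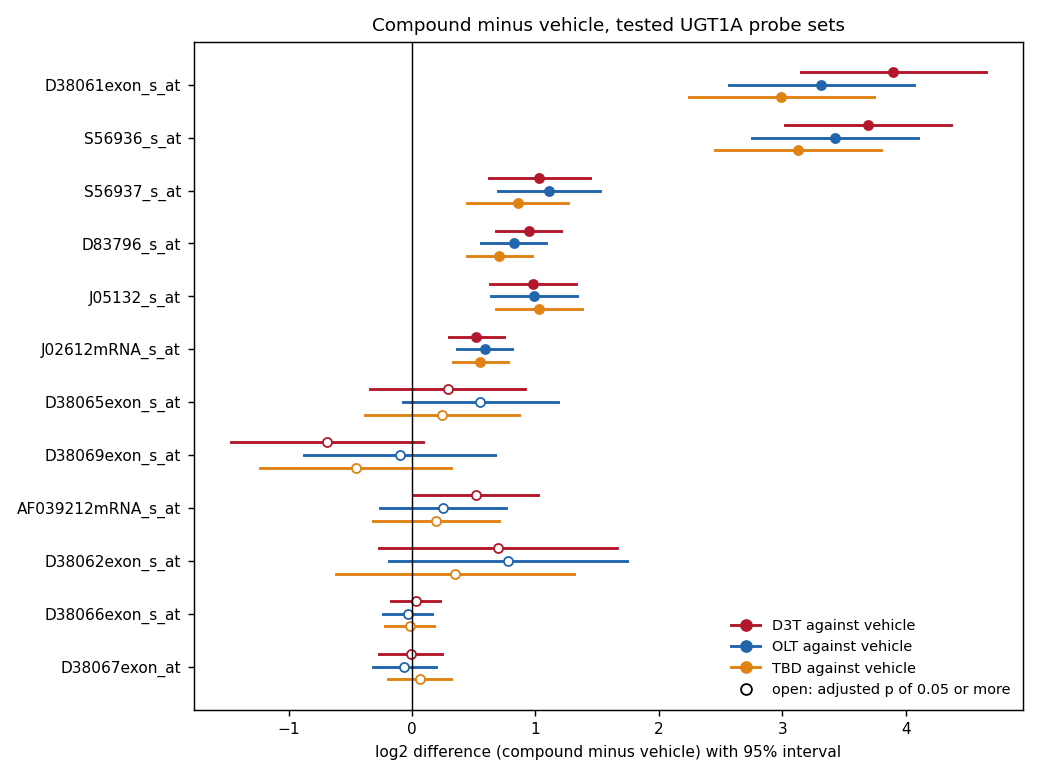
Log2 difference from vehicle (horizontal axis) of each of the 12 tested Ugt1a probe sets with D3T, OLT and TBD, with 95% intervals from the fit, filled where the adjusted p is under 0.05 and open otherwise. D38061exon_s_at and S56936_s_at lie between 2.99 and 3.90, the 4 probe sets that list all 8 genes lie between 0.52 and 1.11, and the points of the other 6 are open for every compound.

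The other 6 tested probe sets did not pass the test with any compound. D38065exon_s_at, with 6 symbols, had 8.51, 9.33, 8.77 and 9.00 with D3T, 9.62, 9.04, 8.85 and 9.15 with OLT, 9.09, 8.82, 8.06 and 9.46 with TBD, and 8.57, 7.97, 8.91 and 9.00 with vehicle. All 3 groups of treated arrays overlapped the vehicle arrays. Its difference was 0.29 with D3T (95% interval -0.34 to 0.92), 0.55 with OLT (-0.07 to 1.18) and 0.24 with TBD (-0.38 to 0.87), with limma adjusted p-values of 0.553, 0.291 and 0.818. The intervals do not reach the rises of D38061exon_s_at or S56936_s_at, although the symbols listed are the same.

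D38069exon_s_at, the only probe set that lists Ugt1a5 without other genes, had 6.06, 7.06, 6.08 and 6.91 with D3T, 7.41, 7.08, 6.94 and 7.03 with OLT, 6.97, 6.91, 5.51 and 7.65 with TBD, and 7.03, 7.13, 7.02 and 7.68 with vehicle. The D3T mean was 6.53 ± 0.53 and the vehicle mean 7.22 ± 0.31 (SD, n = 4 each), and 1 D3T array, replicate 2, lay within the vehicle range. The difference was -0.69 with D3T (95% interval -1.46 to 0.09), -0.10 with OLT (-0.88 to 0.67) and -0.46 with TBD (-1.23 to 0.32). The TBD difference was -0.038 without TBD replicate 3 and -0.75 without TBD replicate 4. The limma adjusted p was 0.215 with D3T, 0.981 with OLT and 0.557 with TBD. After renewed quantile normalization the OLT difference had the other sign, at 0.07.

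AF039212mRNA_s_at had 4.71, 4.53, 4.55 and 5.78 with D3T, 5.00, 4.59, 4.57 and 4.35 with OLT, 4.63, 4.52, 4.37 and 4.77 with TBD, and 4.58, 4.03, 4.48 and 4.40 with vehicle. Its difference with D3T was 0.52 (95% interval 0.01 to 1.02, limma adjusted p 0.156), and it was 0.22 without D3T replicate 4. D38062exon_s_at had 4.07, 4.57, 3.87 and 5.31 with D3T, 6.03, 3.92, 3.91 and 4.27 with OLT, 3.77, 3.88, 3.64 and 5.13 with TBD, and 3.89, 3.60, 3.76 and 3.76 with vehicle. The OLT arrays of D38062exon_s_at all lay above the vehicle arrays, which makes it the seventh probe set without overlap there, but the gap was 0.02 and its difference of 0.78 (-0.19 to 1.74) had a limma adjusted p of 0.35. Without OLT replicate 1 that difference was 0.28. D38066exon_s_at ranged from 2.96 to 3.39 and lay above the array median on 0 of the 16 arrays, and D38067exon_at ranged from 3.05 to 3.72 and lay above it on 1, so no small change can be read from either.

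Within each array, the value of J02612mRNA_s_at was subtracted from that of each other tested Ugt1a probe set, to ask whether the probe sets of the locus moved by unequal amounts. Relative to J02612mRNA_s_at, D38061exon_s_at rose by a further 3.38 log2 units with D3T, 2.73 with OLT and 2.44 with TBD. S56936_s_at rose by a further 3.18 with D3T, 2.84 with OLT and 2.58 with TBD. In these 6 cases the treated and vehicle arrays did not overlap, with a two-sided exact permutation p of 0.0286, the smallest that 4 against 4 arrays allow. For Ugt1a5 (D38069exon_s_at) the relative difference was -1.21 with D3T and -0.69 with OLT, each with an exact permutation p of 0.0286, and -1.01 with TBD, with an exact permutation p of 0.0571. These values include the subtracted rise of J02612mRNA_s_at, which was 0.52, 0.59 and 0.55 with D3T, OLT and TBD. That rise is most of the OLT value, as D38069exon_s_at itself differed from vehicle by -0.10 with OLT. Unsubtracted, it did not pass the limma test with any compound. Of the 33 tests (11 probe sets with 3 compounds), 13 reached the smallest exact permutation p. Beside the 8 above, these were D38066exon_s_at with all 3 compounds and D38067exon_at with D3T and OLT, whose relative differences of -0.65 to -0.49 are those of dim, flat values from which the rise of J02612mRNA_s_at was subtracted. After Benjamini-Hochberg adjustment 0 of the 33 passed, with a lowest value of 0.0725. With 4 against 4 arrays, 19 tests at the smallest p would have been needed for an adjusted value under 0.05, so this count says nothing of whether the probe sets moved equally.

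The 3 compounds were compared with each other at their common dose and time, over 3 pairs. After adjustment over all tested probe sets, 0 of the 12 Ugt1a probe sets differed by limma in any pair, against 1.07% of all tested probe sets for D3T against OLT, 0.658% for D3T against TBD and 0.0564% for TBD against OLT. At an unadjusted p under 0.05 the counts were 0, 1 and 0. The 1 was D38061exon_s_at between D3T, the unsubstituted ring, and TBD, with its tert-butyl group: the difference was 0.90 (95% interval 0.15 to 1.65), with a limma unadjusted p of 0.0214 and an adjusted p of 0.376. Between D3T and OLT, with its methyl and pyrazinyl groups, D38061exon_s_at differed by 0.58 (-0.17 to 1.33, limma adjusted p 0.517). Between TBD and OLT its difference was -0.32 (-1.07 to 0.43). None of the 3 is a call, and the intervals leave room for differences of over 1 log2 unit in this probe set.

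For S56936_s_at the difference was 0.27 (-0.41 to 0.94) between D3T and OLT, 0.57 (-0.11 to 1.24) between D3T and TBD, and -0.30 (-0.97 to 0.37) between TBD and OLT. The probe sets that list all 8 genes had narrower intervals. For J02612mRNA_s_at the difference was -0.07 (-0.29 to 0.15) between D3T and OLT, -0.03 (-0.26 to 0.19) between D3T and TBD, and -0.04 (-0.26 to 0.19) between TBD and OLT. For J05132_s_at the intervals were -0.35 to 0.34, -0.40 to 0.30 and -0.30 to 0.39 in the same order of pairs. D83796_s_at had differences of 0.12 (-0.14 to 0.39), 0.24 (-0.03 to 0.50) and -0.12 (-0.38 to 0.15), and S56937_s_at had -0.08 (-0.49 to 0.33), 0.18 (-0.23 to 0.59) and -0.25 (-0.66 to 0.16). These intervals, and not the lack of a call, bound how far the compounds differed.

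**Figure D3:**
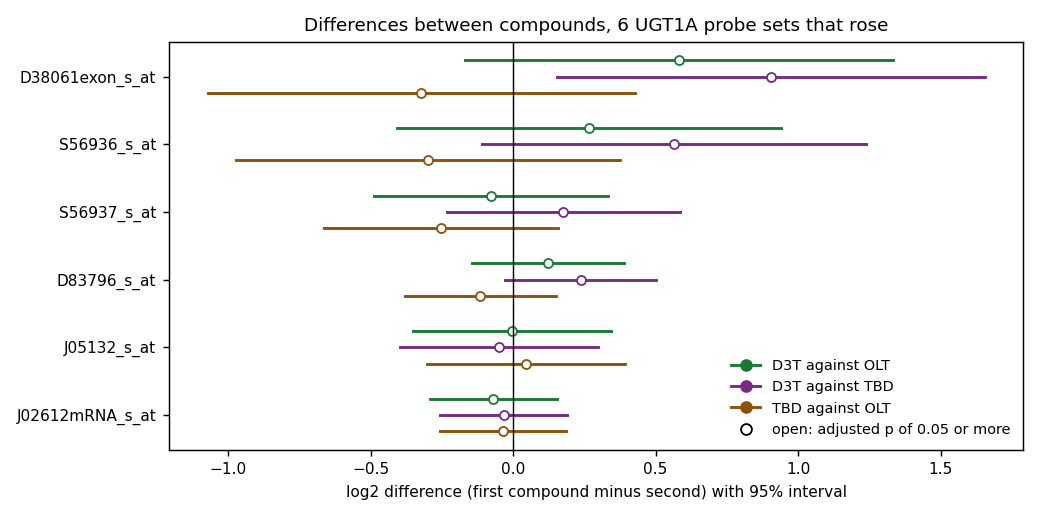
Log2 difference between compounds (horizontal axis: D3T minus OLT, D3T minus TBD, TBD minus OLT) for the 6 Ugt1a probe sets that rose against vehicle, with 95% intervals. All points are open, as 0 of the 12 tested Ugt1a probe sets had an adjusted p under 0.05 in any pair. The interval for D38061exon_s_at between D3T and TBD, 0.15 to 1.65, is on 1 side of 0 before adjustment.

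Among treated animals, a few arrays were the extremes of their group for most probe sets. Among the 10 Ugt1a probe sets above the array median on all 16 arrays, OLT replicate 1 was the highest OLT array in 9, TBD replicate 4 the highest TBD array in 9 and D3T replicate 4 the highest D3T array in 8. Over all tested probe sets, these arrays were the highest of their group in 23.4%, 28.9% and 11.3%. TBD replicate 3 was the lowest TBD array in 7 of the 10, against 52.9% of all tested probe sets, which is near that share. Among the vehicle arrays the highest was split, with replicate 4 highest in 5, replicate 3 in 3, replicate 1 in 2 and replicate 2 in 0. The exception for TBD replicate 4 was J05132_s_at, where it was the lowest of its group. OLT replicate 1 and TBD replicate 4 are the arrays that stand apart on the second principal component, and their part in this pattern was not tested. The probe sets share transcripts, so this is 1 pattern per animal and not 10.

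**Figure D4:**
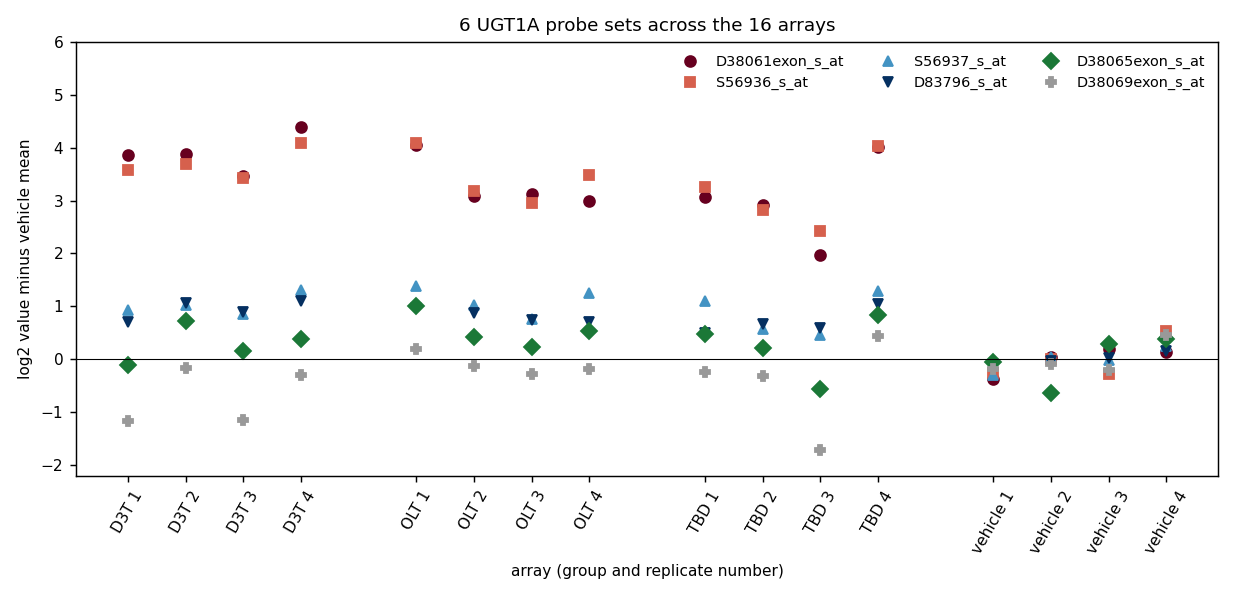
Log2 value minus the mean of the 4 vehicle arrays (vertical axis) for 6 Ugt1a probe sets, 4 that rose and 2 that did not pass the test, on each of the 16 arrays by group and replicate (horizontal axis, D3T, OLT, TBD, vehicle). OLT replicate 1 and TBD replicate 4 are the highest of their groups for each of these 6 probe sets and TBD replicate 3 is the lowest TBD array for each except D83796_s_at.

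The genes with the most similar profiles were sought among 4249 tested probe sets with 1 symbol outside the locus, by the root mean square difference of profiles centred on their own mean over the 16 arrays. For S56936_s_at, the member with the largest root mean square of its 3 differences from vehicle (D38061exon_s_at rose more with D3T alone), they were Akr7a3 (0.671), an aldo-keto reductase that acts on aflatoxin dialdehyde, Mif (0.851), a cytokine, Nedd4 (0.865), a ubiquitin ligase, Acaa1b (0.902), a peroxisomal thiolase, and Ephx1 (0.905), microsomal epoxide hydrolase. The median over all candidates was 1.56. For J02612mRNA_s_at, the brightest, they were Nfix (0.162), a transcription factor, Ppp2r1a (0.166), a phosphatase scaffold, Psmb5 (0.170), a proteasome subunit, Ugt2b15 (0.197), a glucuronosyltransferase of steroids, and Parp1 (0.197), a DNA repair enzyme, with a median of 0.342. The measure favours genes of like amplitude, and a small value for a probe set that changed little is common.

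The genes around the glucuronidation step were followed by 1 probe set a gene. Over 3104 genes, 4.61% rose and 13.1% fell with D3T, 2.61% rose and 8.92% fell with OLT, and 2.8% rose and 10% fell with TBD. Of 12 genes of UDP-glucuronic acid supply and glucuronide handling, 6 were tested; 1 rose and 1 fell with D3T, 2 rose and 1 fell with OLT, and 0 rose and 1 fell with TBD. Ugdh, the dehydrogenase that makes UDP-glucuronic acid, averaged 9.65 ± 0.34 with D3T, 9.48 ± 0.65 with OLT, 9.35 ± 0.36 with TBD and 8.49 ± 0.25 with vehicle (SD, n = 4 each). It rose 2.24-fold with D3T (limma adjusted p 0.00969) and by 1.00 log2 unit with OLT (limma adjusted p 0.0319), and with TBD its difference was 0.86 with a limma adjusted p of 0.0573. Abcc2, the canalicular pump for bilirubin glucuronides, rose with OLT by 0.52 (limma adjusted p 0.0353), and its difference was -0.44 with D3T (limma adjusted p 0.0562) and 0.17 with TBD (limma adjusted p 0.636). Slco1a1, a sinusoidal uptake carrier of organic anions, fell by 2.22 with D3T, fell by 1.69 with OLT and fell by 2.24 with TBD, on the log2 scale. Ugp2, which makes UDP-glucose, is not analysed here.

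Of 16 other UDP-glucuronosyltransferase genes, 6 were tested, and 2 rose and 0 fell with each compound. Ugt2b1, an enzyme of steroids and drugs, averaged 9.81 ± 0.50 with D3T, 11.80 ± 0.31 with OLT, 11.76 ± 0.37 with TBD and 8.86 ± 0.49 with vehicle (SD, n = 4 each). It rose 1.93-fold with D3T (limma adjusted p 0.0278), 7.66-fold with OLT (2.44e-05) and 7.48-fold with TBD (2.85e-05). Its level was lower with D3T than with OLT, by -1.99 (95% interval -2.58 to -1.39, limma adjusted p 0.00232), and lower with D3T than with TBD, by -1.95 (-2.55 to -1.36, limma adjusted p 0.00405). In the same pairs 0 of the 12 tested Ugt1a probe sets passed the test. D38061exon_s_at had differences of 0.58 and 0.90 there (limma adjusted p 0.517 and 0.376), S56936_s_at 0.27 and 0.57, and J02612mRNA_s_at -0.07 and -0.03. The other gene to rise was Ugt2b15 with D3T (0.29) and OLT (0.35), and Ugt2b35 with TBD (0.36). Ugt2b genes are related in sequence, and cross-hybridisation between them was not tested.

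Of 6 genes of bilirubin formation and carriage, 5 were tested; 2 rose with D3T, 1 with OLT and 1 with TBD, and 0 fell. Gsta1, whose glutathione transferase subunit also binds bilirubin in the hepatocyte, rose by 0.86 with D3T, 0.85 with OLT and 0.92 with TBD, and Alb, serum albumin, rose by 0.50 with D3T. The Alb values, 15.34 to 15.94, lie at the top of the range of the arrays, whose highest value is 15.94. The haem oxygenase Hmox1 had differences of -0.06, -0.00 and 0.42 with D3T, OLT and TBD and did not pass the test. It averaged 3.71 ± 0.03 with D3T, 3.76 ± 0.04 with OLT, 4.19 ± 1.13 with TBD and 3.77 ± 0.09 with vehicle (SD, n = 4 each). These are dim values near the array medians of 3.27 to 3.58, so no small change of Hmox1 can be read. Of 14 regulators of the locus, 5 were tested and 0 passed the limma test with any compound (2, 0 and 1 with D3T, OLT and TBD at an unadjusted p under 0.05). Nfe2l2, which encodes NRF2, had differences of -0.74, 0.31 and 0.01 with D3T, OLT and TBD.

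Of 15 NRF2 target genes, 12 were tested; 6 rose with D3T, 5 with OLT and 6 with TBD, and 0 fell. Akr7a3 rose by 4.77 with D3T, 3.73 with OLT and 3.57 with TBD. Nqo1, a quinone reductase, rose by 3.62 with D3T and 2.58 with TBD, and its difference with OLT was 2.16 with a limma adjusted p of 0.0581. Ephx1 rose by 1.75, 1.71 and 1.68 with D3T, OLT and TBD, Tkt, transketolase, by 1.62, 1.39 and 1.37, and the glutathione transferase Gstp1 by 6.38, 2.20 and 4.27. Gsta3, another glutathione transferase, also rose with each compound and averaged 11.50 ± 0.42 with D3T, 10.28 ± 1.05 with OLT, 10.74 ± 0.77 with TBD and 3.20 ± 0.15 with vehicle (SD, n = 4 each). The vehicle mean lies below the lowest array median of 3.27, so no size is given for the rise.

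Of 7 AhR target genes, 3 were tested. By the adjusted test 1 rose and 1 fell with D3T, 0 passed with OLT, and 1 rose and 1 fell with TBD. At an unadjusted p under 0.05 by limma, 2 of the 3 differed with each compound. The gene that rose was Nqo1, which is also in the NRF2 list. Cyp1a2, a cytochrome P450 of aromatic amines and caffeine, averaged 9.03 ± 0.66 with D3T, 12.00 ± 0.25 with OLT, 9.46 ± 0.25 with TBD and 11.23 ± 0.42 with vehicle (SD, n = 4 each). It fell by 2.20 on the log2 scale with D3T and by 1.76 with TBD, and its difference with OLT was 0.77 (limma adjusted p 0.0997). Cyp1a1 lay below the filter.

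Of 10 CAR and PXR target genes, 7 were tested; 1 rose and 3 fell with D3T, 3 rose and 2 fell with OLT, and 3 rose and 1 fell with TBD. The gene that rose with D3T was Ugt2b1, which is also among the glucuronosyltransferases. Cyp2b2, a phenobarbital-inducible cytochrome P450, rose by 2.37 with OLT and 2.12 with TBD, and its difference with D3T was 0.35 (limma adjusted p 0.641). Cyp3a23-3a1, a steroid- and drug-metabolising cytochrome P450, rose by 1.07 with OLT and 0.84 with TBD and fell by 0.54 with D3T. Cyp3a2, of the same family, fell by 2.62 with D3T. Por, the electron donor of these cytochromes, fell by 1.25 with D3T, 1.52 with OLT and 1.65 with TBD, and Alas1, the first enzyme of haem synthesis, fell by 1.62 with OLT.

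**Figure D5:**
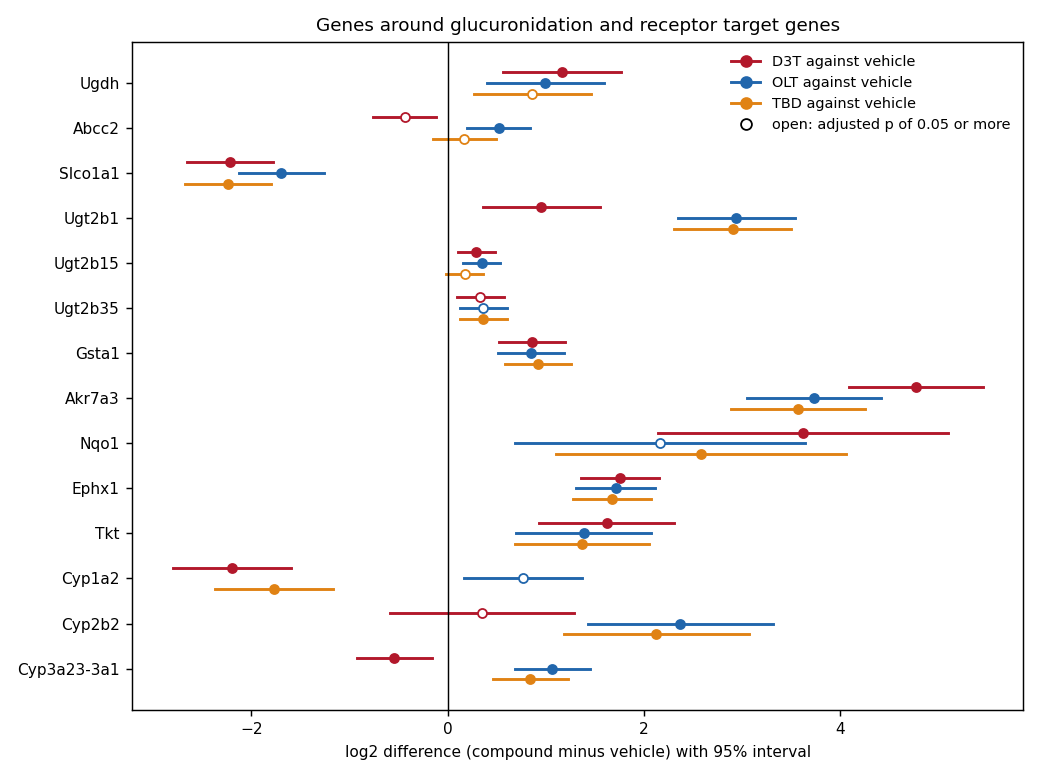
Log2 difference from vehicle (horizontal axis) of some of the named pathway genes with D3T, OLT and TBD, with 95% intervals from the fit. Drawn are Ugdh, Abcc2, Slco1a1, Ugt2b1, Ugt2b15, Ugt2b35, Gsta1, Akr7a3, Nqo1, Ephx1, Tkt, Cyp1a2, Cyp2b2 and Cyp3a23-3a1. The other named genes, among them Gstp1, Gsta3, Cyp3a2, Por and Alas1, are not drawn. Filled points have an adjusted p under 0.05. Ugdh lies between 0.86 and 1.17, Ugt2b1 is at 0.95 with D3T and at 2.94 and 2.90 with OLT and TBD, and Cyp1a2 lies below 0 with D3T and TBD only.

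Markers of other cells moved in the same livers. Of 6 macrophage and Kupffer cell markers, 3 (Aif1, Clec4f and Cd74) fell with each compound, and the summed linear level of the 6, all above the array median on 16 arrays, was 887 to 1155 with D3T, 875 to 1139 with OLT, 907 to 1266 with TBD and 1687 to 2513 with vehicle. In a linear sum the brightest markers weigh most, here Cd74 (log2 up to 10.04) and Clec4f (up to 9.95), which are among the 3 that fell. The summed level of the 7 hepatocyte markers was 151014 to 160167 with D3T, 124646 to 148941 with OLT, 132685 to 154619 with TBD and 130456 to 144394 with vehicle. The D3T range lay above the vehicle range, and of these 7 markers 2 rose and 1 fell with D3T, while 0 rose and 1 fell with OLT and with TBD. The brightest of the 7 was Alb (log2 15.34 to 15.94, at the top of the range of the arrays), which rose with D3T. The median log2 difference of the 7 with D3T was 0.0046. Of 4 tested endothelial markers, 1 (Lyve1) fell with D3T and with TBD and 0 with OLT. Of 3 tested stellate cell markers, 2 (Col1a1 and Col3a1) fell with D3T and with TBD and 1 (Col1a1) with OLT. The single tested markers of bile duct, red blood cells and intestine and the 2 of kidney did not pass the test with any compound. The intestinal markers Alpi and Fabp2 and the kidney markers Umod and Aqp2, from other organs that express UGT1A enzymes, lay above the array median on 0 arrays. Others of the same lists, Muc2 (4.20 to 4.56) of intestine and Slc12a1 (3.91 to 4.53) and Slc34a1 (3.87 to 4.63) of kidney, lay above it on all 16, at dim values. The part of the marker changes in the Ugt1a differences was not tested.

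Another scaling moved the split of calls over all probe sets but not the Ugt1a counts. As deposited, 33.5% of the calls with D3T, 30.0% with OLT and 27.3% with TBD were rises. After renewed quantile normalization the shares were 52.9%, 46.5% and 44.9%, and with array medians centred they were 43.8%, 41.8% and 33.6%. Between D3T and OLT, 36.8% of the calls were higher with D3T as deposited and 52.2% after quantile normalization. Between D3T and TBD, 28.6% were higher with D3T as deposited, 40% after quantile normalization and 15.4% with medians centred. The same 6 Ugt1a probe sets rose with each compound under both.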

How the data were processed

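Liver RNA of 16 rats was hybridised to 1 array each, and samples were grouped by the treatment in their titles. The deposited values are log2 expression per probe set, made by the authors with GCRMA per the submitters' processing notes, with no version stated in the sources used here. The method corrects for background and quantile-normalizes, and it pulls dim probe sets towards a floor. No column belonged to an unknown sample (0).

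The Ugt1a members, lists and tests were chosen with earlier results of these data known. All 14 members are named whatever they show. Pathway genes are named where any compound passed the threshold, at most 6 a list, plus Ugdh, Ugp2, Nqo1, Cyp1a2, Cyp1a1 and Cyp2b2, and the 5 nearest profiles are named for 2 members. For a gene with several tested probe sets, the one of highest mean was taken. Of 7006 probe sets with 1 symbol, 6985 were matched to RefSeq by Entrez ID. Cell type markers were fixed with the lists.

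Probe sets above the 40th percentile of their array on at least 4 arrays went into 1 limma fit (version 3.58.1, R 4.3.3) of the 16 arrays (12 residual degrees of freedom, 2.41 prior), with Benjamini-Hochberg adjustment over 5323 probe sets and a two-sided threshold of 0.05. The fit was tested on simulated data. Alternatives were no filter, an intensity trend, 8 arrays only, a replicate block, renewed quantile normalization, centred medians, array weights, leaving out each array or the 2 that stand apart, and a threshold of 0.01. Sequences and motifs were read with Python 3.11.15 and pandas 2.3.3, and figures drawn with matplotlib 3.10.9.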

Additional observations from a re-analysis of the deposited data

Results flagged for a closer look

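Of 56 groups of 4 arrays (14 Ugt1a probe sets in 4 groups), 5 held an array whose gap to its nearest neighbour, divided by the range of the group, was above Dixon's 95% critical value, and chance alone gives about 1 in 20. D38061exon_s_at was at 10.50 on OLT replicate 1, with the other OLT arrays at 9.43 to 9.57, and the OLT rise was 3.07 without it. D38062exon_s_at was at 6.03 on OLT replicate 1, with the others at 3.91 to 4.27, and at 5.13 on TBD replicate 4, with the others at 3.64 to 3.88. AF039212mRNA_s_at was at 5.78 on D3T replicate 4, with the others at 4.53 to 4.71. D38066exon_s_at was at 3.09 on TBD replicate 3, with the others at 3.20 to 3.22, a gap at the floor of the array.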

How the results depend on the processing

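The counts of 6, 6 and 6 Ugt1a probe sets that rose with D3T, OLT and TBD, and of 0 in each compound pair, were the same under all 17 alternatives run for each pair and each compound. The design is too small for the count of 0 in the exact tests within arrays to say anything of stability. All 18 differences behind the rises kept their side of the threshold. The highest adjusted p among them was 0.0471, for S56937_s_at with TBD. Over all tested probe sets, array weights gave 1694 calls with D3T, 1115 with OLT, 390 for D3T against OLT and 124 for D3T against TBD, where the reported counts were 981, 600, 57 and 35. A threshold of 0.01 gave 495 with D3T, 261 with OLT, 318 with TBD (693 reported), 23 for D3T against OLT and 12 for D3T against TBD. Centred medians gave 361 with OLT, 426 with TBD and 13 for D3T against TBD. With only 8 arrays, 361 were called with TBD and 8 for D3T against TBD. For D3T against OLT, quantile normalization gave 92 and leaving out OLT replicate 1 and TBD replicate 4 gave 88. Leaving out 1 array gave 689 to 1139 with D3T, 422 to 693 with OLT, 462 to 814 with TBD, 30 to 51 for D3T against OLT, 19 to 34 for D3T against TBD and 3 to 6 for TBD against OLT (3 reported). The cause of these changes was not tested.

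Signs turned only in differences that did not pass the test. With array weights, D38065exon_s_at with D3T was -0.0024 and S56937_s_at between D3T and OLT was 0.11. With quantile normalization, D38069exon_s_at with OLT was 0.070. With OLT replicate 1 and TBD replicate 4 left out, S56937_s_at between D3T and OLT was 0.018, and J02612mRNA_s_at between D3T and TBD was 0.0099. Over single arrays left out, D38069exon_s_at with OLT ranged from -0.20 to 0.054, S56937_s_at between D3T and OLT from -0.19 to 0.018, D38061exon_s_at between TBD and OLT from -0.66 to 0.018, J02612mRNA_s_at between D3T and TBD from -0.12 to 0.025 and between TBD and OLT from -0.080 to 0.0087. J05132_s_at ranged from -0.15 to 0.19 between D3T and OLT, from -0.20 to 0.14 between D3T and TBD and from -0.0011 to 0.13 between TBD and OLT.

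The replicate numbers are used here only to name the arrays, as no pairing is stated. Over 24 same-numbered pairs the deviations from group means correlated at -0.52 to 0.32, 8 pairs were over 0.1, and 3 of 16 arrays were best matched by their own number. With 4 arrays a group, these values cannot settle whether same-numbered arrays were processed together. With the replicate block the Ugt1a counts were 6, 6 and 6, and the counts over all probe sets were 888, 526 and 630 with D3T, OLT and TBD. Probe sets at the GCRMA floor (D38063exon_at, S70364_at, D38066exon_s_at, D38067exon_at) say nothing of small changes, several-symbol probe sets do not separate first exons, and 4 animals a group limit every interval.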
